A study of Mus musculus with 24 samples.

Results

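The comparison described here is that of TTPΔARE with WT in hematopoietic stem cells (HSCs) of young mice. It rests on 8 of the 24 bulk mRNA-seq libraries of the series, 4 labelled YTTPdeltaARE_HSC (here Y-TTPΔARE) and 4 labelled YWT_HSC (Y-WT), chosen by their titles alone. Both groups came from bone marrow of mice labelled Young-age with treatment None, and per the study's methods all mice were male, TTPΔARE mice were homozygous and the WT mice were their littermates. The allele lacks an AU-rich sequence in the 3′ untranslated region (3′ UTR) of Zfp36 and is a germline change, so that the niche cells around the HSCs carried it as well as the HSCs themselves. HSCs were sorted as lineage-negative Sca-1+ c-Kit+ (LSK) CD34- Flk2- CD150+ cells. The other 16 libraries, from HSCs of Mid-age mice (5 MWT and 3 MTTPdeltaARE) and from young MPP3 cells (4 and 4), are used only to show where the young HSCs differed. The labels do not say that the libraries of a group came from separate mice, and p-values measure the spread between these libraries, whatever its source.

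Tristetraprolin (TTP), the product of Zfp36, is a zinc finger protein that binds AU-rich elements in the 3′ UTR of mRNAs, best the heptamer UAUUUAU, and recruits the CCR4-NOT deadenylase and the decapping enzymes, after which the mRNA is degraded. Its known targets include mRNAs of inflammatory cytokines and chemokines, and mice without TTP develop a systemic inflammatory disease. The Zfp36 mRNA carries such elements itself, so that the protein limits its own synthesis, and a Zfp36 mRNA without them is more stable. HSCs sense cytokines directly, and inflammatory signals are known to drive them out of quiescence and toward myeloid output.

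The heptamer was searched as TATTTAT on the transcript strand of 1 annotated 3′ UTR per gene, counting overlapping matches separately. Of 11689 genes above the expression limit with a 3′ UTR of at least 1 base, 27.7% held at least 1. The 774-base 3′ UTR of the unaltered Zfp36 held 3. They are shown here with 10 bases on each side, the heptamer in capitals, since they are the element through which the protein acts on its own mRNA. Which of these bases the TTPΔARE allele lacks was not read from these data. All coordinates are on GRCm38, from the GENCODE annotation.
Zfp36, chr7:28376967-28376993, minus strand: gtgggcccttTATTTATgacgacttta
Zfp36, chr7:28376952-28376978, minus strand: atgacgacttTATTTATtgtattaaga
Zfp36, chr7:28376927-28376953, minus strand: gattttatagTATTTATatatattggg
Of the 6 genes called below, Ccl3 and Sema3a held 1 heptamer each. They are shown with those of Ccl4, Il1r1 and Socs3, which are on the list of known TTP targets, as is Ccl3, and on which results below turn.
Ccl3, chr11:83648004-83648030, minus strand: tatttgtgacTATTTATtctgaaagac
Sema3a, chr5:13602433-13602459, plus strand: tccgtatctgTATTTATcattgcattt
Ccl4, chr11:83664543-83664569, plus strand: ttatttctatTATTTATgttttagtta
Il1r1, chr1:40314929-40314955, plus strand: tcactgttggTATTTATagcacctacc
Il1r1, chr1:40316006-40316032, plus strand: aaataatttaTATTTATactggtcaat
Socs3, chr11:117966140-117966166, minus strand: tttgcacataTATTTATatttatactc
Socs3, chr11:117966134-117966160, minus strand: catatatttaTATTTATactcagaaaa

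The 8 libraries held 24261371 to 36850425 counts each. The libraries numbered 1 of both groups stood apart from the others, with 27729 genes with a count in Y-WT and 28398 in Y-TTPΔARE, against 36533 to 41676 in the other 6. Levels are given as CPM, counts scaled to library size with TMM factors, always in the order of libraries 1 to 4. The genes of the sort's own surface markers were present in all 8 libraries. Kit lay between 1220 and 1425 CPM, Ly6a (Sca-1) between 208.7 and 293.6 CPM, and Slamf1 (CD150) between 59.7 and 86.5 CPM. The mRNAs of the 2 proteins selected against were present as well, Flt3 (Flk2) between 42.2 and 70.9 CPM and Cd34 between 249.1 and 425.0 CPM. The HSC transcription factor genes Hlf (461.4 to 564.9 CPM) and Mecom (230.6 to 295.6 CPM) were high throughout. Genes of other cells were present too, among them immunoglobulin genes. Ighm ranged from 7.42 to 25631 CPM, and Igha from 1802 to 12490 CPM. In bulk samples, fewer cells of a type and less RNA per cell cannot be told apart.

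The targeted gene was read first, as a check of the labels. Zfp36 lay at 75.8, 35.96, 38.6 and 57.0 CPM in Y-WT and at 117, 96.8, 88.7 and 100 CPM in Y-TTPΔARE. The groups did not overlap, and Y-WT libraries 1 and 4 were the highest of their group. The ratio was 1.94-fold (log2 fold change 0.96, SE 0.21), with an adjusted p of 0.238 by edgeR's quasi-likelihood test and 7.4e-04 by DESeq2. The exact two-sided permutation test on log2 CPM gave p = 0.0286, the smallest that 4 against 4 libraries can give. Without the libraries numbered 1 the adjusted p was 0.0483, and without Y-WT libraries 1 and 4 it was 0.0168 with a log2 fold change of 1.52. The paralogs Zfp36l1 and Zfp36l2 encode proteins that bind the same element, and their 3′ UTRs hold 3 heptamers each. Zfp36l2 was the most abundant of the family per CPM, at 688, 634, 644 and 656 CPM in Y-WT and 865, 804, 682 and 681 CPM in Y-TTPΔARE. Its groups overlapped (log2 fold change 0.21, SE 0.09, adjusted p = 0.63). Zfp36l1 also overlapped, with a log2 fold change of -0.13 that turned to 0.21 without Y-WT libraries 1 and 4. Zfp36l3 had no count in any of the 8 libraries.

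Of 13786 genes above the logCPM limit of 1.5, 6 were called at an adjusted p under 0.05 and a fold change over 1.2 by the quasi-likelihood test of edgeR, adjusted over all genes tested. Clca3a1, Sema3a and Tgfbi fell (0.0218% of genes called lower) and Ccl3, Hbb-bt and Hk3 rose (0.0218% called higher). For each of the 6, all Y-TTPΔARE libraries lay on one side of all Y-WT libraries.

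Sema3a, a secreted guidance ligand of neuropilin and plexin receptors, had the largest difference among the genes called lower. It lay at 32.5, 23.5, 17.0 and 36.6 CPM in Y-WT and at 2.49, 6.17, 3.04 and 5.11 CPM in Y-TTPΔARE, that is 6.53-fold lower. Clca3a1, a chloride channel accessory gene used as a marker of a subset of HSCs and of endothelium, lay at 62.1, 41.8, 34.4 and 51.6 CPM in Y-WT and fell to 18.1, 13.6, 18.0 and 15.1 CPM, 2.93-fold. Tgfbi, a matrix protein gene induced by TGF-β, fell 2.22-fold, from 45.6, 50.1, 31.4 and 40.4 CPM to 21.1, 16.6, 17.9 and 20.0 CPM. Y-WT libraries 1 and 4 were the highest of their group for Sema3a and Clca3a1 but not for Tgfbi. Without those 2 libraries the log2 fold changes were -2.18 for Sema3a (adjusted p = 0.0645), -1.14 for Clca3a1 (0.041) and -1.02 for Tgfbi (0.1).

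Ccl3 encodes MIP-1α, a chemokine known as an inhibitor of HSC proliferation and a reported TTP target. It lay at 4.45, 4.86, 7.42 and 4.65 CPM in Y-WT and rose to 18.4, 15.3, 16.2 and 17.4 CPM, 3.15-fold. Hk3, the hexokinase of myeloid cells, rose 1.68-fold, from 35.5, 34.3, 40.7 and 41.3 CPM to 60.8, 62.2, 64.3 and 68.0 CPM. Hbb-bt, an adult β-globin gene, rose 3.04-fold, from 15.9, 15.3, 9.24 and 11.4 CPM to 40.6, 43.3, 43.1 and 30.9 CPM. Ccl3 stayed called without the libraries numbered 1 and without Y-WT libraries 1 and 4, as did Hk3 and Hbb-bt. All 6 calls were lost on leaving out any 1 of Y-WT library 2, Y-WT library 4, Y-TTPΔARE library 1 and Y-TTPΔARE library 3. None of these calls stood without Y-TTPΔARE libraries 1 and 2 together either, although the log2 fold change of Ccl3 was then 1.71.

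**Figure D1:**
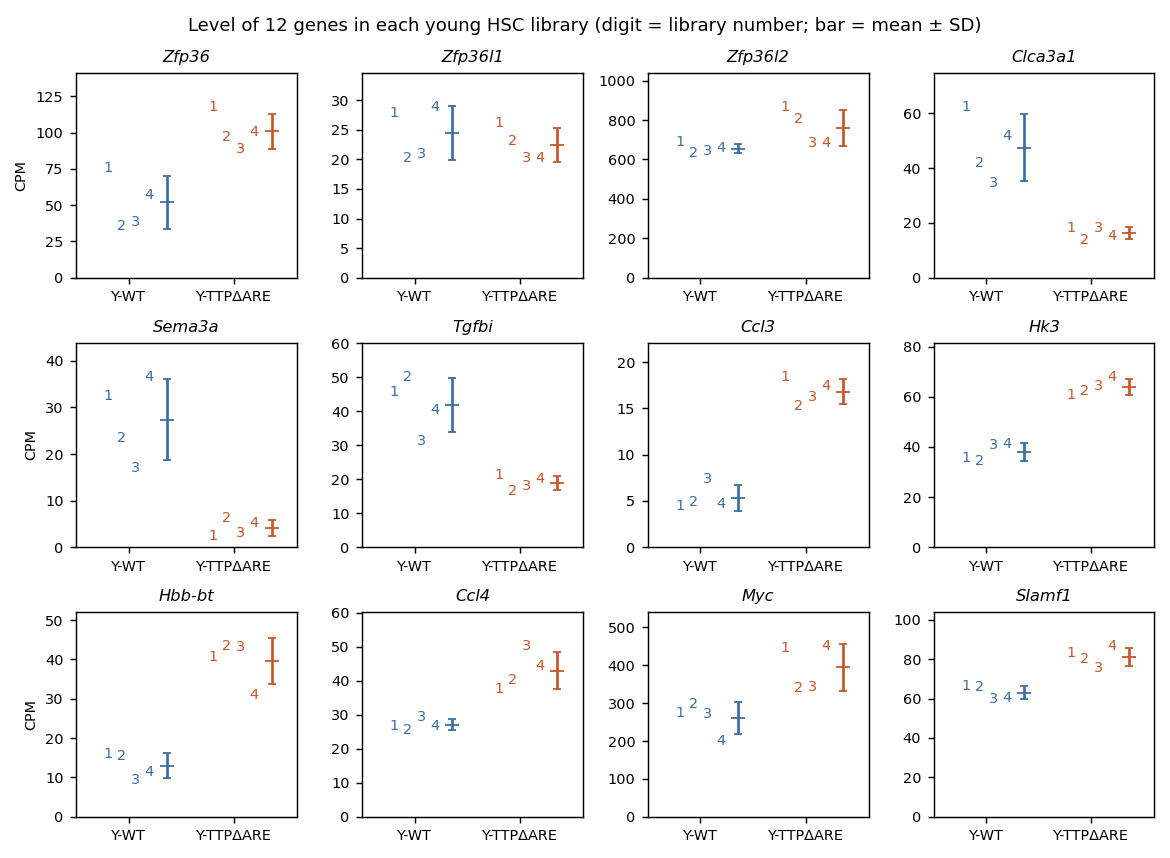
Level of 12 genes in each young HSC library, in CPM on a linear axis from 0. Digits are library numbers, and the bar beside each group is the mean ± SD of 4 libraries. For Ccl3 the Y-TTPΔARE libraries lie between 15.3 and 18.4 CPM, above all Y-WT libraries, whereas Zfp36l1 and Zfp36l2 overlap between the groups.

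Few genes passed the adjustment, and the number depended on the test. DESeq2 called 139 genes lower (1.01%) and 165 higher (1.2%), and edgeR's likelihood ratio test 96 lower (0.696%) and 50 higher (0.363%). They shared 89 of the lower and 47 of the higher genes. Genes with the smallest p in each direction among those whose groups did not overlap are described next. Groups did not overlap for 348 genes that were lower in Y-TTPΔARE (2.52%) and 408 that were higher (2.96%).

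Among the lower ones, beside Clca3a1, Sema3a and Tgfbi, were genes of adhesion, matrix and cytokine reception, none of them called by the quasi-likelihood test. Those named in this paragraph had an adjusted p under 0.05 by DESeq2 and by the likelihood ratio test. Csf2rb, the shared β chain of the IL-3, IL-5 and GM-CSF receptors, lay at 33.1, 32.1, 30.7 and 36.6 CPM in Y-WT and at 22.6, 20.3, 21.9 and 18.4 CPM in Y-TTPΔARE (1.59-fold lower, adjusted p = 0.112). Selp, the P-selectin gene, lay at 103, 83.8, 64.4 and 78.5 CPM and at 42.8, 40.9, 52.6 and 41.5 CPM. Adamts5, a matrix protease gene, lay at 25.1, 12.1, 14.2 and 32.7 CPM in Y-WT and between 2.89 and 6.08 CPM in Y-TTPΔARE. For Rhoj, Stap2 and Enpp6 the ratios were 1.79, 2.77 and 3.52-fold lower, and Y-WT libraries 1 and 4 were the highest of their group for Stap2, Enpp6 and Adamts5.

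Among the higher ones, beside Ccl3, Hk3 and Hbb-bt, none was called by the quasi-likelihood test either. Those named here also had an adjusted p under 0.05 by DESeq2 and by the likelihood ratio test. Ccl4, the MIP-1β gene next to Ccl3 on chromosome 11, lay at 26.6, 25.6, 29.4 and 26.6 CPM in Y-WT and at 37.4, 40.1, 50.1 and 44.3 CPM in Y-TTPΔARE (1.59-fold, adjusted p = 0.113). Car1, a carbonic anhydrase gene of the erythroid lineage, differed 10.5-fold, from 7.92, 16.8, 20.8 and 16.0 CPM to 296, 88.8, 187 and 75.2 CPM (adjusted p = 0.0715). Ccr2, the receptor for monocyte chemoattractant proteins, lay at 4.25, 2.86, 4.95 and 3.77 CPM and at 18.4, 11.9, 9.38 and 9.51 CPM. Cxcr4, the CXCL12 receptor that retains HSCs in the marrow, lay at 23.9, 18.6, 18.7 and 17.7 CPM and at 35.3, 35.2, 32.8 and 28.0 CPM (1.66-fold, adjusted p = 0.126). Padi4, Lgals1 and Sbspon had ratios of 1.52, 1.51 and 2.54-fold.

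For the groups of genes that follow, each list is described by its members above the logCPM limit, beside the same measures over all 13786 genes. Of all genes, 8046 (58.4%) had a positive log2 fold change and the median was 0.03, with quartiles of -0.08 and 0.12. Genes with an unadjusted p under 0.05 and a fold over 1.2 are termed nominally lower or higher here, which is no call. There were 596 nominally lower (4.32%) and 468 nominally higher (3.39%). With libraries left out, the shares were 5.03% and 9.84% without the libraries numbered 1, 3.7% and 15.4% without Y-WT libraries 1 and 4, and 2.44% and 3.16% without Y-TTPΔARE libraries 1 and 2. The median of all genes was 0.11, 0.15 and 0.06 in these 3 sets, beside which the medians of lists with libraries left out are to be read. Counts of positive list members in these sets are likewise to be read against that upward shift of all genes. In a wide list of reported TTP targets, for example, 1434 of 1682 members were positive without Y-WT libraries 1 and 4, against 1170 with all 8 libraries. Of the 55 lists, 42 had a median between -0.2 and 0.2, and 8 held at least 1 of the called genes.

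In the machinery through which TTP acts, no gene was called. Of 16 members of the CCR4-NOT deadenylase list, 11 had positive log2 fold changes and the median was 0.05, and all 16 were positive without Y-WT libraries 1 and 4 (median 0.17). Btg1, an adaptor of the complex and an antiproliferative gene, lay at 70.1, 48.9, 56.1 and 61.0 CPM in Y-WT and at 98.8, 85.0, 72.8 and 75.7 CPM in Y-TTPΔARE (adjusted p = 0.297). The 27 decapping and exosome genes had a median of 0.05, which was 0.15 in that set, and Ddx6, the decapping helicase, lay at 130, 111, 118 and 108 CPM against 104, 96.6, 100 and 91.1 CPM. The 18 other AU-rich element binding protein genes had a median of -0.003, with no member nominally lower or higher, and 0.11 in the same set. In the list of the p38-MK2 kinases and DUSP phosphatases, which control TTP phosphorylation, 10 of 18 members had positive values (median 0.04). The median was 0.16 without Y-WT library 1 alone, and 16 of 18 were positive and 4 nominally higher without Y-WT libraries 1 and 4 (median 0.23). Dusp6 was the 1 nominally higher member, at 121, 78.5, 75.9 and 78.0 CPM in Y-WT and 146, 153, 104 and 132 CPM in Y-TTPΔARE.

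Known TTP target transcripts lay on both sides. Of 29 listed, 13 were above the limit, 6 with positive and 7 with negative log2 fold changes (median -0.03), and 1, Ccl3, was called. The median was 0.08 without the libraries numbered 1, 0.17 without Y-WT libraries 1 and 4 and -0.02 without Y-TTPΔARE libraries 1 and 2. Of these, 4 were nominally lower, among them Il1r1, Socs3 and Ncam1, and 3 nominally higher, Ccl3, Ccl4 and Myc. Il1r1, the IL-1 receptor through which IL-1 acts on HSCs, lay at 15.0, 21.8, 17.0 and 20.4 CPM in Y-WT and at 8.16, 12.8, 12.1 and 12.8 CPM in Y-TTPΔARE (1.62-fold lower, adjusted p = 0.269). Socs3, the feedback inhibitor of STAT3, lay at 8.98, 13.8, 10.3 and 11.0 CPM and at 8.85, 5.22, 6.04 and 6.17 CPM (1.68-fold lower, adjusted p = 0.297). In the other direction Myc, the growth regulator, lay at 274, 298, 272 and 201 CPM in Y-WT and at 446, 341, 343 and 450 CPM in Y-TTPΔARE (1.51-fold, adjusted p = 0.258). These groups did not overlap for any of the 3 genes. The log2 fold change of Myc lay between 0.56 and 0.65 in all 3 sets with libraries left out, that of Socs3 between -0.94 and -0.78, and that of Il1r1 between -0.67 and -0.53. The wider list of TTP CLIP targets, 2420 symbols of which 1682 were above the limit, had 1170 members with positive values (median 0.07). Of these targets, 48 were nominally lower and 79 nominally higher, and without Y-WT libraries 1 and 4, 46 and 322.

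Genes were then grouped by the number of heptamers in the 3′ UTR. The median log2 fold change was 0.04 for the 8455 genes with none, 0.04 for the 2146 with 1, 0.03 for the 700 with 2 and -0.0007 for the 388 with 3 or more. The share with a negative value was 39.3%, 39.0%, 41.7% and 50.3%. The 3′ UTR length rose along the same order, with medians of 719, 1698.5, 2396.5 and 3246 bases. Within the longest tertile of 3′ UTRs, 44.8% of genes with a heptamer and 45.3% of those without had negative values, and within the shortest tertile 26.3% and 35.2%. Of the 300 genes with a 3′ UTR whose groups did not overlap and that were lower, 31.0% held a heptamer, and of the 350 that were higher, 29.1%. A match describes the annotated sequence and is no measure of binding.

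**Figure D2:**
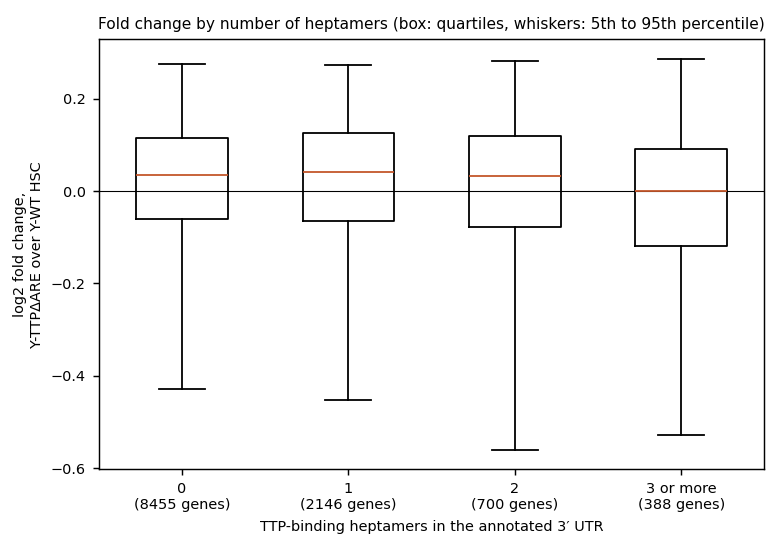
Log2 fold change of Y-TTPΔARE over Y-WT HSCs for genes above the logCPM limit, by the number of TTP-binding heptamers in the annotated 3′ UTR. Boxes are quartiles with the median as a line, and whiskers run from the 5th to the 95th percentile. The medians are 0.04, 0.04, 0.03 and -0.0007 for 0, 1, 2 and 3 or more heptamers.

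Among the inflammatory lists, chemokines had the most nominally higher members when all 8 libraries were used. Of 14 above the limit, 10 had positive values (median 0.47), 6 were nominally higher and none nominally lower, and Ccl3 was called. Ccl5, a chemokine of T and NK cells among others, lay at 8.26, 2.64, 8.46 and 8.39 CPM in Y-WT and at 34.4, 21.6, 13.0 and 15.4 CPM in Y-TTPΔARE (adjusted p = 0.26). Cxcl10, an interferon-induced chemokine, lay at 5.68, 3.39, 3.71 and 2.89 CPM and at 17.7, 7.09, 12.8 and 5.17 CPM. Ccl9 lay at 4.93, 3.99, 4.21 and 3.43 CPM and at 4.28, 7.91, 6.52 and 7.49 CPM. Ccl5 was highest in Y-TTPΔARE libraries 1 and 2, which also held the most T and NK cell marker counts, and the part of those cells in its values was not tested. Ccl3 and Ccl4 did not follow that split. The median of the chemokines was 0.55 without the libraries numbered 1, 0.73 without Y-WT libraries 1 and 4, and 0.32 without Y-TTPΔARE libraries 1 and 2. Without Y-WT libraries 1 and 4, 8 of 13 chemokines were nominally higher, against 10 of 39 NF-κB and TNF genes, 9 of 44 interferon-stimulated genes and 15.4% of all genes.

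In the NF-κB and TNF signalling list, 26 of 39 members had positive values (median 0.08), with 1 nominally higher member and none called. Of the 39, 37 were positive without Y-WT libraries 1 and 4, and 10 nominally higher, where 15.4% of all genes were nominally higher. Without Y-TTPΔARE libraries 1 and 2, 21 were positive, 2 nominally lower and none nominally higher. Tnfaip3, the A20 gene that ends NF-κB signalling, lay at 37.4, 26.6, 35.3 and 33.2 CPM in Y-WT and at 49.1, 52.0, 42.2 and 32.3 CPM in Y-TTPΔARE. Traf2, Tnip1 and Ikbkb had log2 fold changes of 0.21, 0.21 and 0.18. The 45 interferon-stimulated genes had a median of -0.01, with 2 nominally lower and none nominally higher. Without Y-WT libraries 1 and 4, 30 of 44 were positive, 1 nominally lower and 9 nominally higher. The median of the list was then 0.07, against 0.15 for all genes. Ifi204 lay at 9.72, 4.71, 3.67 and 5.50 CPM in Y-WT and at 2.82, 2.02, 3.79 and 2.57 CPM in Y-TTPΔARE, and Oasl1 had a log2 fold change of -0.40. Among the Toll-like receptors and adaptors, 6 of 11 had positive values (median 0.05, and -0.12 without Y-TTPΔARE libraries 1 and 2), and Ly96, the MD-2 coreceptor that binds endotoxin, lay at 23.6, 16.9, 16.7 and 20.6 CPM against 12.5, 13.1, 13.8 and 11.0 CPM (adjusted p = 0.219). The IL-1 and IL-18 receptor list had a median of 0.02, and Il1r1 was its 1 nominally lower member. The median of that list was 0.11 without Y-WT library 1 alone and 0.10 without Y-WT libraries 1 and 4.

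In the IL-6 family and STAT3 list, 14 of 23 members had negative values (median -0.05), and 4 were nominally lower and none nominally higher. Without Y-WT libraries 1 and 4, 15 of 23 were positive (median 0.06, against 0.15 for all genes), with 3 nominally lower and 3 nominally higher. The median of the list was 0.027 without Y-WT library 1 alone and 0.007 without Y-WT library 4 alone, against 0.14 and 0.08 for all genes. The oncostatin M receptor gene Osmr lay at 13.2, 10.4, 9.53 and 24.1 CPM in Y-WT and at 3.71, 7.12, 5.11 and 5.43 CPM in Y-TTPΔARE (2.68-fold lower, adjusted p = 0.215). Lifr, the LIF receptor gene, lay at 7.06, 3.35, 6.02 and 11.7 CPM and at 1.13, 3.07, 2.92 and 3.79 CPM. Cebpd, a STAT3-induced transcription factor gene, lay at 17.8, 15.2, 12.3 and 15.8 CPM and at 11.8, 11.7, 10.8 and 11.0 CPM. Osmr and Lifr were highest in Y-WT library 4, and without Y-WT libraries 1 and 4 the log2 fold changes were -0.81 and -0.70. Cish, the STAT5 feedback gene, was the 1 nominally higher member of the SOCS and STAT5 list, at 115, 75.4, 66.3 and 102 CPM in Y-WT and 208, 173, 98.6 and 115 CPM in Y-TTPΔARE.

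Receptors for hematopoietic growth factors were divided. Of 23 above the limit, 12 had positive and 11 negative values, with 5 nominally lower and 2 nominally higher. Of 24 above the limit without Y-WT libraries 1 and 4, 3 were nominally lower and 8 nominally higher. Beside Csf2rb, its mouse paralog Csf2rb2 lay at 20.7, 19.9, 12.3 and 26.4 CPM in Y-WT and at 14.4, 10.2, 10.9 and 9.80 CPM in Y-TTPΔARE. Reads of these near-identical copies can be split between them, and how the counting treated such reads is not given in the sources used here. Csf3r, the G-CSF receptor gene, lay at 95.2, 131, 107 and 91.8 CPM and at 76.3, 72.3, 73.3 and 83.5 CPM (1.39-fold lower, adjusted p = 0.26). Fgfr1 lay at 20.6, 26.7, 26.2 and 25.8 CPM and at 18.7, 19.7, 20.1 and 19.4 CPM. Groups did not overlap for Csf2rb, Csf3r or Fgfr1.

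TGF-β and BMP signalling hold HSCs in quiescence. The 27 genes of the TGF-β pathway included Tgfbi and had a median of 0.04, with 2 nominally lower and 1 nominally higher. It was 0.14 without Y-WT library 1 alone, 0.15 with 7 nominally higher without Y-WT libraries 1 and 4, and -0.01 without Y-TTPΔARE libraries 1 and 2. Lrrc32, which anchors latent TGF-β on the cell surface, lay at 24.3, 7.68, 8.99 and 27.9 CPM in Y-WT and at 5.58, 4.91, 7.00 and 4.95 CPM in Y-TTPΔARE, and its log2 fold change of -1.62 was -0.48 without Y-WT libraries 1 and 4. Smad3 lay at 74.99, 71.5, 79.6 and 85.2 CPM and at 99.2, 96.0, 90.8 and 86.2 CPM (1.2-fold, adjusted p = 0.394), and Tsc22d1 at 357, 318, 316 and 312 CPM and at 389, 419, 368 and 369 CPM. Of 17 BMP and activin genes, 13 had negative values (median -0.18), with 5 nominally lower and 1 nominally higher. The receptor gene Bmpr1a lay at 5.97, 8.70, 6.64 and 7.10 CPM and at 3.03, 5.19, 4.60 and 5.95 CPM. Acvrl1, the ALK1 receptor gene of endothelium, lay at 8.21, 2.71, 3.96 and 12.7 CPM and at 0.95, 2.98, 1.83 and 1.99 CPM. Without Y-WT libraries 1 and 4 the median of the BMP list was 0.13, against 0.15 for all genes.

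Many semaphorin and matrix genes had lower levels in Y-TTPΔARE. Of 23 semaphorin, neuropilin and plexin genes, 15 had negative values (median -0.34), with 9 nominally lower and 2 nominally higher, and Sema3a was called. Without Y-WT libraries 1 and 4 the median was -0.13, with 5 nominally lower and 2 nominally higher. Sema6a lay at 8.87, 8.93, 7.14 and 15.0 CPM in Y-WT and at 2.79, 4.15, 2.28 and 3.70 CPM in Y-TTPΔARE (3.1-fold lower, adjusted p = 0.126). Sema6d lay at 7.49, 6.82, 9.61 and 14.8 CPM and at 2.85, 3.73, 5.53 and 4.63 CPM. The receptor gene Plxnb2 lay at 43.3, 57.4, 49.99 and 57.7 CPM and at 36.7, 37.9, 38.2 and 37.95 CPM. Sema4a, a semaphorin of immune cells, had the opposite direction, at 6.20, 2.75, 4.79 and 4.34 CPM and at 14.0, 13.5, 9.46 and 7.49 CPM.

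Of 22 extracellular matrix genes, 17 had negative values (median -0.60). Of these, 10 were nominally lower and none nominally higher, and the groups of 8 did not overlap with Y-TTPΔARE lower. Adamts4, an aggrecan-cleaving protease gene, lay at 5.11, 6.93, 5.73 and 5.22 CPM in Y-WT and at 0.71, 1.27, 1.68 and 2.22 CPM in Y-TTPΔARE (3.9-fold lower, adjusted p = 0.127). Mmp14, a membrane-bound protease gene, lay at 44.7, 31.5, 27.6 and 41.2 CPM and at 25.9, 19.6, 21.2 and 21.4 CPM. Sparc, a matrix glycoprotein gene, lay at 191, 49.3, 39.6 and 200 CPM and at 23.8, 30.6, 30.3 and 23.2 CPM. Nid1, a basement membrane gene, lay at 47.2, 15.6, 16.5 and 70.5 CPM and at 9.17, 14.3, 8.93 and 9.22 CPM. Sparc and Nid1 were several times higher in Y-WT libraries 1 and 4 than in 2 and 3, and Adamts4 was not. Without Y-WT libraries 1 and 4, the log2 fold change was -2.02 for Adamts4, -0.63 for Sparc and -0.54 for Nid1. That of Mmp14 went from -0.72 to -0.33. The median of the list was -0.33 in that set, over 23 members, with 9 nominally lower and none nominally higher. Leaving out 1 library alone also moved the median of the list, to -0.28 without Y-WT library 3 and to -0.32 without Y-TTPΔARE library 2.

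Integrins and selectins had a median of 0.02, with 11 of 20 members positive, and the median was 0.16 without Y-WT libraries 1 and 4. Itgb7, an integrin chain of lymphocytes and mast cells, lay at 40.2, 25.5, 31.5 and 38.4 CPM in Y-WT and at 79.9, 80.1, 55.4 and 45.7 CPM in Y-TTPΔARE (1.92-fold, adjusted p = 0.215). Itgb5 lay at 14.0, 6.82, 10.3 and 14.8 CPM and at 20.7, 21.8, 19.7 and 16.1 CPM. Sele, the E-selectin gene of endothelium, lay at 31.2, 10.8, 9.57 and 28.3 CPM and at 8.40, 7.79, 7.69 and 5.82 CPM, and its log2 fold change of -1.43 was -0.37 without Y-WT libraries 1 and 4.

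HSC identity genes lay on both sides of 0. Of 42, all above the limit, 27 had positive values (median 0.07), with 4 nominally lower and 8 nominally higher, and Clca3a1 was called. The nominally higher members were 8 without the libraries numbered 1, 17 without Y-WT libraries 1 and 4 and 1 without Y-TTPΔARE libraries 1 and 2, with medians of 0.20, 0.22 and 0.11, and without Y-WT library 1 alone the median was 0.21. Slamf1, the gene of the CD150 marker used for sorting, lay at 66.4, 65.6, 59.7 and 60.4 CPM in Y-WT and at 83.1, 80.0, 75.7 and 86.5 CPM in Y-TTPΔARE (1.29-fold, adjusted p = 0.198). Vwf, a marker of platelet-biased HSCs, lay at 119, 98.7, 107 and 113 CPM and at 154, 135, 138 and 118 CPM. Hoxa9 lay at 135, 104, 102 and 108 CPM and at 142, 139, 130 and 144 CPM. The groups did not overlap for Slamf1 and overlapped for Vwf and Hoxa9. The 47 genes of S phase and mitosis had a median of 0.09, with none nominally lower or higher, and the 27 genes of quiescence and G1 a median of 0.10. The latter was 0.28 without Y-WT library 1 alone, and 14 of the 27 were nominally higher without Y-WT libraries 1 and 4 (median 0.31), 9 without the libraries numbered 1 and 1 without Y-TTPΔARE libraries 1 and 2. Without Y-TTPΔARE libraries 1 and 2, 19 of the 47 cell cycle genes were nominally higher (median 0.28).

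No stress gene was called. Of 27 genes of the unfolded protein and heat shock responses, 25 had positive values (median 0.16) and 5 were nominally higher. The chaperone gene Hspa8 lay at 1525, 1316, 1259 and 1178 CPM in Y-WT and at 2235, 1873, 1467 and 1651 CPM in Y-TTPΔARE, and Hsph1 at 62.4, 69.7, 64.9 and 52.6 CPM and at 133, 119, 63.5 and 82.9 CPM. Both were highest in Y-TTPΔARE libraries 1 and 2, and without them 17 of 27 members were positive and 1 nominally higher (median 0.03). The metallothionein gene Mt1 lay at 20.9, 14.4, 28.0 and 10.9 CPM and at 37.9, 32.4, 43.8 and 25.8 CPM. Immediate early genes had a median of 0.04, which was 0.26 without Y-WT libraries 1 and 4 and -0.02 without Y-TTPΔARE libraries 1 and 2. Fosl2 lay at 12.9, 12.3, 9.78 and 12.4 CPM and at 31.0, 40.8, 21.8 and 11.0 CPM, whereas Jun lay at 57.4, 38.9, 38.03 and 35.5 CPM and at 38.8, 28.6, 22.7 and 21.3 CPM. Klf6 had a log2 fold change of 0.39.

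In metabolism, genes of glucose uptake and breakdown and of sterol synthesis lay on opposite sides of the median. Of 33 glycolysis genes, 28 had positive values (median 0.10), and the groups of 6 did not overlap with Y-TTPΔARE higher, including Hk3. The nominally higher members were 4, against 14 without Y-WT libraries 1 and 4 and 3 without Y-TTPΔARE libraries 1 and 2. Slc2a3, the GLUT3 glucose transporter gene, lay at 214, 197, 203 and 193 CPM in Y-WT and at 310, 313, 265 and 258 CPM in Y-TTPΔARE (1.42-fold, adjusted p = 0.127). Pfkfb3, whose product activates phosphofructokinase, lay at 29.2, 27.1, 29.2 and 27.6 CPM and at 56.6, 41.5, 33.6 and 38.7 CPM. Hk2 lay at 28.5, 29.4, 29.3 and 24.3 CPM and at 44.3, 46.3, 34.6 and 30.1 CPM. Aldoc, an aldolase gene, went the other way, at 56.2, 50.2, 50.2 and 43.8 CPM and at 37.3, 33.4, 38.6 and 34.6 CPM (1.39-fold lower, adjusted p = 0.182).

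Of 24 genes of cholesterol and fatty acid synthesis, 21 had negative values (median -0.17), with 7 nominally lower, none nominally higher and none called. Hmgcs1, an early enzyme of the pathway, lay at 68.9, 69.0, 69.6 and 55.6 CPM in Y-WT and at 61.2, 44.1, 40.5 and 51.1 CPM in Y-TTPΔARE. The median of this list was -0.17, -0.19 and -0.18 in the 3 sets with libraries left out, with 19 of 24 members negative in each.

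Of 78 cytosolic ribosomal protein genes, 76 had positive values (median 0.13), and of 77 nuclear oxidative phosphorylation genes, 71 (median 0.09). In each list 1 member was nominally higher, Rpl13a with a log2 fold change of 0.38 and Ndufa6 with 0.30. Both lists depended on the libraries. Without the libraries numbered 1, without Y-WT libraries 1 and 4 and without Y-TTPΔARE libraries 1 and 2, respectively, 70, 43 and 27 of the 78 ribosomal protein genes were nominally higher (medians 0.33, 0.32 and 0.34). For oxidative phosphorylation these counts were 30, 16 and 4 of 77 (medians 0.25, 0.24 and 0.22). Of the clock genes, 15 of 18 had positive values (median 0.09, and 0.31 without Y-WT libraries 1 and 4). Per1, a repressor of the clock that glucocorticoids induce, lay at 22.8, 17.2, 12.0 and 19.3 CPM in Y-WT and at 50.6, 70.8, 37.1 and 34.8 CPM in Y-TTPΔARE (2.71-fold, adjusted p = 0.138). Per2 lay at 28.4, 27.9, 25.7 and 27.3 CPM and at 33.0, 44.2, 33.1 and 29.8 CPM.

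Antigen presentation genes and the GIMAP family, small GTPases of lymphocytes and of HSCs, had mostly positive values. The 15 MHC class II genes had a median of 0.24, and 14 were positive. H2-Ab1 lay at 190, 234, 163 and 170 CPM in Y-WT and at 340, 209, 311 and 201 CPM in Y-TTPΔARE. Nlrc5, the transactivator of MHC class I, lay at 70.5, 74.8, 86.9 and 91.1 CPM and at 109, 101, 96.0 and 93.3 CPM. All 8 GIMAP genes were positive (median 0.26), with 4 nominally higher. The nominally higher members were all 8 without the libraries numbered 1 (median 0.40) and without Y-WT libraries 1 and 4 (0.49), and 2 without Y-TTPΔARE libraries 1 and 2 (0.25). Gimap3 lay at 52.2, 22.7, 37.8 and 34.1 CPM and at 121, 132, 54.2 and 65.1 CPM, and Gimap7 at 13.3, 6.55, 10.2 and 9.30 CPM and at 30.7, 24.2, 16.5 and 17.9 CPM. The ATP receptor gene P2rx7 lay at 9.96, 6.67, 9.98 and 13.2 CPM and at 24.0, 29.7, 17.9 and 14.4 CPM. Gimap3, Gimap7, P2rx7, Itgb7, Itgb5 and Sema4a were, like the T and NK cell markers, highest in Y-TTPΔARE libraries 1 and 2. So were Ccr2, Cxcr4, Btg1, Per1, Slc2a3, Pfkfb3 and Hk2. The part of T and NK cells in these levels was not tested.

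**Figure D3:**
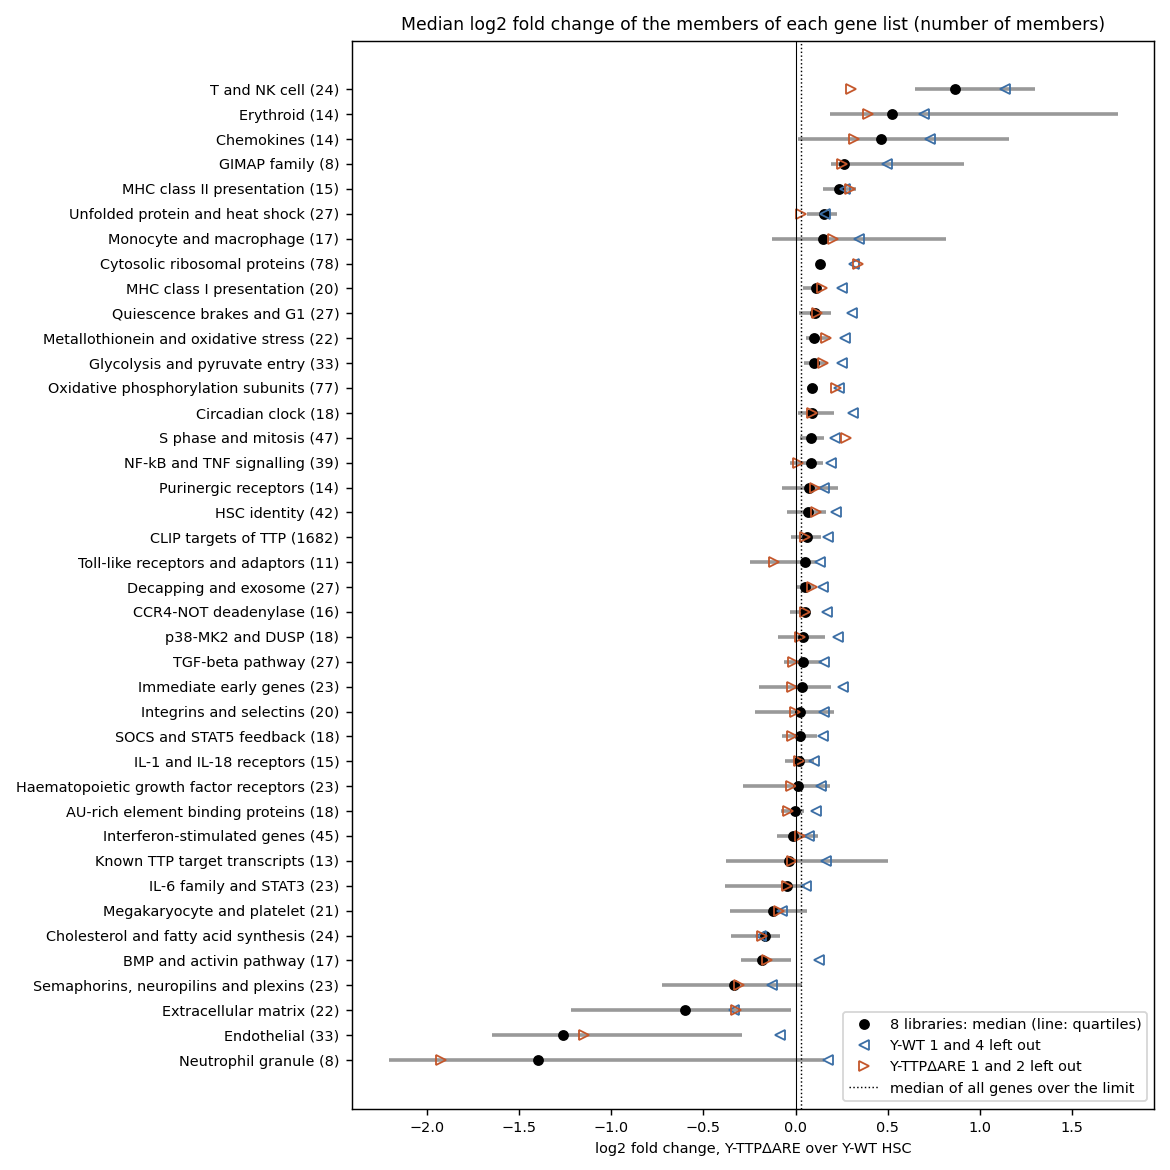
Median log2 fold change of the members of each gene list, with the number of members above the logCPM limit in brackets and the quartiles as grey lines. Triangles give the medians without Y-WT libraries 1 and 4 and without Y-TTPΔARE libraries 1 and 2, and the dotted line the median of all genes (0.03). The cholesterol list stays near -0.17 in all 3 fits, whereas the endothelial list moves from -1.26 to -0.08.

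In several lists of other cell types, 1 or 2 libraries of a group stood apart. Of 33 endothelial genes, 31 had negative values (median -1.26), 22 were nominally lower and 1 nominally higher, and the groups of 14 did not overlap. Their summed level was 4191, 2605, 2500 and 4342 CPM in Y-WT and 2494, 2534, 2586 and 2403 CPM in Y-TTPΔARE. Flt4, the VEGF receptor 3 gene of sinusoids and lymphatics, lay at 62.6, 22.4, 23.6 and 88.0 CPM and at 10.5, 18.3, 12.4 and 10.2 CPM. Aplnr lay at 42.1, 16.0, 11.2 and 34.0 CPM and at 8.67, 7.09, 7.03 and 5.85 CPM. Adgrl4, Tie1 and Esam, the members with the highest levels, which HSCs also express, had log2 fold changes of -0.13, -0.08 and -0.29. Without Y-WT libraries 1 and 4, 19 of 33 members were negative (median -0.08), with 10 nominally lower and 8 nominally higher, while the median of all genes was 0.15. The part of endothelial cells in the lower levels of Sema3a, Clca3a1, Selp and the matrix genes was not tested. Without those libraries the log2 fold change of Selp was -0.64, and those of Sema3a, Clca3a1, Adamts4, Sparc and Nid1 are given above. No listed endothelial gene was at 0 in all libraries.

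The T and NK cell list was higher in Y-TTPΔARE, with all 24 members positive (median 0.86) and 16 nominally higher. Its summed level was 247.4, 210.1, 253.1 and 249.5 CPM in Y-WT and 527.5, 484.8, 270.4 and 323.3 CPM in Y-TTPΔARE. Cd3e, a chain of the T-cell receptor complex, lay at 8.58, 2.98, 6.85 and 5.00 CPM and at 28.5, 26.8, 8.74 and 12.3 CPM. Pdcd1, the PD-1 gene, had no count in Y-WT library 1, lay at 0.37 to 0.63 CPM in the other Y-WT libraries, and at 10.6, 7.18, 2.70 and 2.12 CPM in Y-TTPΔARE. Without Y-TTPΔARE libraries 1 and 2, 17 of 20 members were positive (median 0.30), with 3 nominally higher. The sort was for lineage-negative cells, and whether T or NK cells were among those sorted was not tested.

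Erythroid genes were mostly at higher levels in Y-TTPΔARE. Of 14 members, 12 had positive values (median 0.52), 9 were nominally higher, 6 did not overlap between the groups, and Hbb-bt was called. The summed level was 1935, 1486, 1536 and 1668 CPM in Y-WT and 2201, 1657, 2264 and 2025 CPM in Y-TTPΔARE, and the groups overlapped. Car2, the member with the highest level, lay at 1716, 1259, 1323 and 1413 CPM and at 1541, 1313, 1747 and 1716 CPM. Its log2 fold change was 0.15, and that of Hemgn was -0.14. Klf1, the master transcription factor gene of the lineage, lay at 1.86, 5.57, 5.53 and 3.99 CPM in Y-WT and at 23.6, 8.36, 17.4 and 8.97 CPM in Y-TTPΔARE (3.46-fold, adjusted p = 0.249). Hbb-bs lay at 2.32, 0.90, 0.62 and 1.70 CPM and at 22.3, 3.99, 7.42 and 2.70 CPM. Ermap lay at 0.14, 3.01, 2.76 and 1.76 CPM and at 19.8, 7.94, 11.8 and 4.76 CPM. Y-TTPΔARE libraries 1 and 3 were the highest for Car1, Klf1, Hbb-bs and Ermap, and Hbb-bt was nearly even over libraries 1 to 3. The median of the list was 0.41, 0.70 and 0.39 in the 3 sets with libraries left out. Reads of Hbb-bt and Hbb-bs, near-identical globin copies, can be split between them.

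Megakaryocyte and platelet genes had a median of -0.12, with 14 of 21 negative, 4 nominally lower and 2 nominally higher. Without Y-WT libraries 1 and 4, 11 of 21 were negative (median -0.08), with 5 nominally lower and 5 nominally higher. The median was -0.04 without the libraries numbered 1. Gp1ba, a subunit of the von Willebrand factor receptor, lay at 13.1, 14.7, 13.0 and 12.1 CPM in Y-WT and at 8.61, 8.51, 9.49 and 9.38 CPM in Y-TTPΔARE (1.47-fold lower, adjusted p = 0.195). Gp5 lay at 21.2, 33.4, 35.4 and 29.6 CPM and at 17.8, 13.0, 25.9 and 20.8 CPM. Monocyte and macrophage genes lay on both sides, with 10 of 17 positive and 7 negative (median 0.15). Of the 17, 6 were nominally higher and 2 nominally lower, and the groups of 4 did not overlap with Y-TTPΔARE higher. Without Y-WT libraries 1 and 4, 14 of 17 were positive (median 0.35), with 8 nominally higher and none nominally lower. The median was 0.24 without the libraries numbered 1. Mrc1, nominally lower, had a log2 fold change of -1.36 and was highest in Y-WT libraries 1 and 4. Ctsb, an abundant member, had -0.13. The complement genes C1qa and C1qb, the iron exporter gene Slc40a1 and Cd68 are expressed by macrophages. C1qb lay at 6.14, 4.14, 4.21 and 7.86 CPM and at 7.96, 12.7, 12.4 and 12.3 CPM, Slc40a1 at 18.1, 12.4, 11.6 and 22.5 CPM and at 24.3, 34.7, 29.1 and 26.0 CPM. Of 8 neutrophil granule genes, 3 had positive and 5 negative values, with 2 nominally lower and 1 nominally higher. Prtn3 and Padi4, the members with the highest levels, had log2 fold changes of 0.004 and 0.61. The members Ltf, Ngp and S100a9 were high in Y-WT library 4. Ngp lay at 0.69, 4.71, 1.16 and 47.1 CPM in Y-WT and between 1.41 and 2.20 CPM in Y-TTPΔARE, and the median of the list moved from -1.40 to 0.18 without Y-WT libraries 1 and 4.

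**Figure D4:**
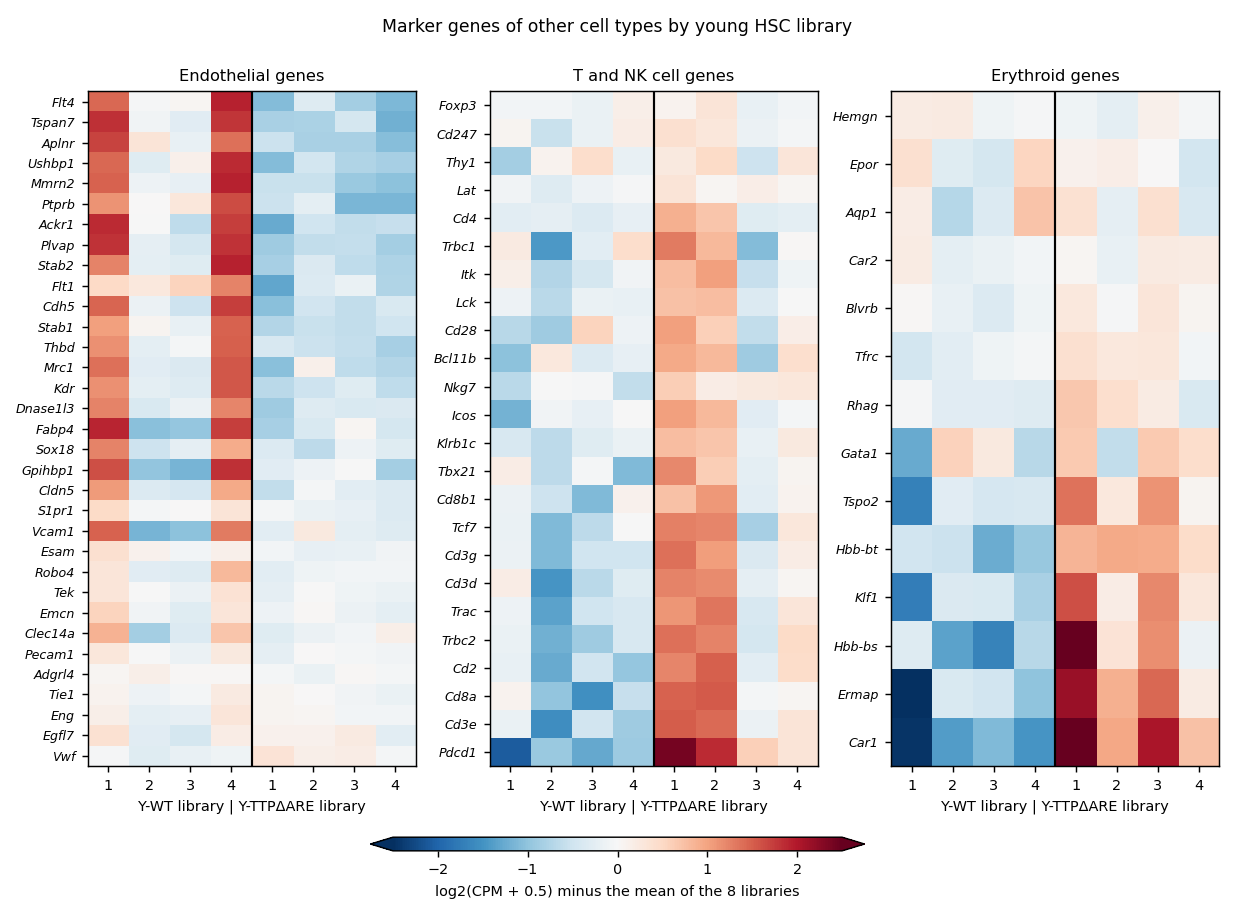
Endothelial, T and NK cell and erythroid genes above the logCPM limit in each young HSC library, as log2(CPM + 0.5) minus the mean of the 8 libraries, with Y-WT libraries left of the line and Y-TTPΔARE right of it. Endothelial genes are high in Y-WT libraries 1 and 4, T and NK cell genes in Y-TTPΔARE libraries 1 and 2, and the erythroid genes at the foot of the panel in the Y-TTPΔARE libraries, most in 1 and 3.

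The same genotype difference was measured in HSCs of middle-aged mice (M-HSCs) and in young MPP3 cells, myeloid-biased multipotent progenitors. These comparisons share no library with that of young HSCs. The difference between the effects was tested as an interaction, over all genes of the fit. It passed an adjusted p under 0.05 for 6 of 13786 genes (0.0435%) between young HSCs and M-HSCs and for 84 (0.609%) between young HSCs and MPP3 cells. Zfp36 had log2 fold changes of 0.96 (SE 0.21) in young HSCs, 0.97 (SE 0.11) in M-HSCs and 1.79 (SE 0.18) in MPP3 cells, and neither difference passed (adjusted p = 0.956 and 0.43). Ccl3 had 1.66 (SE 0.17), 1.73 (SE 0.26) and 1.26 (SE 0.24), and Ccl4 had 0.67, 0.65 and 0.73. Hk3 had 0.75, 0.62 and 0.51. Clca3a1 had -1.55 (SE 0.18) and -1.81 (SE 0.16) in the HSCs of both ages and 0.69 (SE 0.95) in MPP3 cells, and the difference from MPP3 cells did not pass (adjusted p = 0.358). The effects on these genes were positive, or for Clca3a1 negative, in HSCs of both ages, and a difference between them was not shown.

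Most of the 111 genes named in this comparison were chosen by a small p in young HSCs, and the same libraries enter the interaction. Counts among them are thus not to be set beside the shares of all genes. Of the 111, the effect in young HSCs differed from that in M-HSCs for 2. Cxcr4 had a log2 fold change of 0.73 in young HSCs and -0.54 in M-HSCs (adjusted p = 0.0149), and Per1 had 1.44 and -0.73 (adjusted p = 0.0174). It differed from that in MPP3 cells for 6. Tgfbi had -1.15 in young HSCs and 0.81 in MPP3 cells (adjusted p = 0.00196), and Ccr2 had 1.64 and 4.15 (adjusted p = 0.00312). Sema3a was lower by 2.71 on the log2 scale in young HSCs, with values of -0.97 (SE 0.53) in M-HSCs and 0.07 (SE 1.58) in MPP3 cells, and at these errors a difference was not detectable (adjusted p = 0.281 and 0.553).

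**Figure D5:**
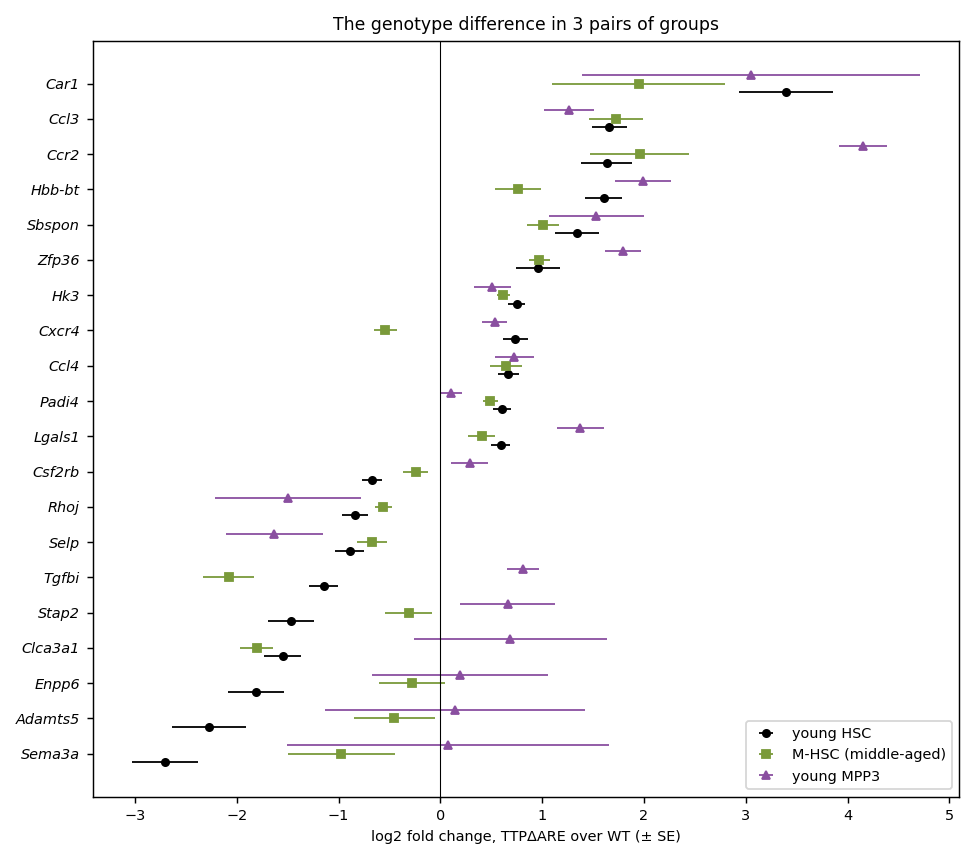
Log2 fold change of TTPΔARE over WT (± SE) in young HSCs, M-HSCs and young MPP3 cells for Zfp36 and genes with the smallest p among those whose groups did not overlap. Ccl3, Ccl4 and Hk3 lie right of 0 in all 3, Cxcr4 is at -0.54 in M-HSCs against 0.73 in young HSCs, and Tgfbi at 0.81 in MPP3 cells against -1.15.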

How the data were processed

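The authors trimmed reads with Cutadapt, aligned them with STAR to the mm10 genome and counted them per gene with featureCounts, per the submitters' processing notes and the study's methods. The deposited values are raw counts per gene symbol, for 55376 genes. Strand and multimapping settings are not given in the sources used here. The labels and the study's methods name different SMART-type library kits. The aim was to go from these counts to gene-wise differences between 4 and 4 libraries, then to gene lists.

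Differences between the 4 and 4 libraries were fitted with edgeR 4.0.16 under R 4.3.3, after filterByExpr (minimum count 10, minimum total 15), using TMM factors and the quasi-likelihood test, with Benjamini-Hochberg adjustment over the 24381 genes tested. CPM use the TMM-scaled library sizes. Calls needed a logCPM above 1.5, a change of more than 1.2-fold and an adjusted p below 0.05. SEs were taken as |log2 fold change| over the root of the F statistic. The script was tested on simulated counts. Each list is described by counts and medians, with no set test. 3′ UTRs are from GENCODE M21 on GRCm38, another release than that used for counting, with 11843 of 13786 genes matched to a coding transcript, of which 11689 had a 3′ UTR of at least 1 base.

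Named genes are the Zfp36 family, the called genes, the 10 lower and 10 higher genes of smallest p without overlap (receptor segments and predicted models left out), and up to 5 list members of smallest p, with up to 3 of highest CPM for other cell types. Some genes that the rule names are not reported here. Genes of the sort markers, Hlf and Mecom were added to check the gate. The members and lists were chosen with earlier results of these data known. Alternatives were DESeq2 1.42.0, the likelihood ratio test, RLE and upper quartile factors, no filter, a block for the replicate number, removal of receptor and immunoglobulin segment genes, the receptor gene level as a covariate, wider sets of libraries and each library left out. The 3 sets of libraries left out together were chosen after seeing the data. They are the libraries numbered 1 of both groups, which hold the fewest genes with a count, Y-WT libraries 1 and 4, highest in endothelial genes, and Y-TTPΔARE libraries 1 and 2, highest in T and NK cell genes.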

Additional observations from a re-analysis of the deposited data

Results flagged for a closer look

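Among 334 groups of 4 libraries examined (named genes, depth measures and list sums), 27 (8.08%) had 1 library apart from the other 3, by a gap to the nearest library that exceeded Dixon's critical value at the 0.05 level as a part of the group's range. At that level chance alone gives about 1 in 20. In Y-WT, library 1 was high for Cxcr4 (23.9 CPM), Dusp6 (121 CPM), Tsc22d1 (357 CPM) and Jun (57.4 CPM) and low for Fgfr1 (20.6 CPM). Library 2 was low for Ccl5 (2.64 CPM) and for the summed T and NK cell genes (210.1 CPM). Library 3 was high for Ccl3 (7.42 CPM) and Ighm (25631 CPM) and low for the summed SOCS and STAT5 genes (1802 CPM). Library 4 was high for Hspg2 (18.0 CPM) and the neutrophil granule genes Ltf (22.2 CPM), Ngp (47.1 CPM) and S100a9 (47.9 CPM), and low for Hmgcs1 (55.6 CPM).

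In Y-TTPΔARE, library 1 was low for Il1r1 (8.16 CPM), Plxnb2 (36.7 CPM), C1qb (7.96 CPM), C1qa (3.92 CPM) and Ighm (18.5 CPM). Library 2 was high for Nid1 (14.3 CPM) and low for the summed genes of S phase and mitosis (3218 CPM). Library 3 was high for Selp (52.6 CPM) and low for Bmpr2 (25.7 CPM), and library 4 was high for Enpp6 (5.33 CPM). The libraries numbered 1 had the fewest genes with a count, 27729 in Y-WT and 28398 in Y-TTPΔARE.

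The genotype difference itself differed between groups of cells for 8 named genes by the interaction test. The log2 fold change in young HSCs exceeded that in M-HSCs by 1.32 for Cxcr4 and by 2.22 for Per1. The log2 fold change in young HSCs minus that in MPP3 cells was -1.88 for Tgfbi, -2.42 for Ccr2, -3.59 for Ifi204, -4.47 for Acvrl1, -2.90 for H2-Ab1 and -1.11 for Cd68.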

How the results depend on the processing

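Against 3 genes called lower and 3 higher, the counts were 139 and 165 with DESeq2, 96 and 50 with the likelihood ratio test, 33 and 40 without the filter, 19 and 10 with the receptor gene level as a covariate, 29 and 19 with all 16 HSC libraries and 0 and 3 with all 16 young libraries in the fit. All 6 called genes stayed called in each of these but the last, in which Ccl3 alone did. With each library left out in turn the counts ranged from 0 to 4 lower and from 0 to 10 higher, and of the 6 called genes 0 to 6 stayed called: 0 without Y-WT library 2 or 4 or Y-TTPΔARE library 1 or 3, 1 without Y-TTPΔARE library 2 and 2 without Y-TTPΔARE library 4. Leaving out 2 libraries gave 2 lower and 13 higher without those numbered 1, 2 and 16 without Y-WT libraries 1 and 4, and 0 and 3 without Y-TTPΔARE libraries 1 and 2. Other fits stayed within 1 of the 3 and 3 genes.

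The log2 fold change of Zfp36 (0.96) passed the threshold with DESeq2 (0.97), the likelihood ratio test (0.96), no filter (1.02), the receptor covariate (0.84), all 16 HSC libraries (0.96), the libraries numbered 1 left out (1.19) and Y-WT libraries 1 and 4 left out (1.52), and ranged from 0.82 to 1.27 with each library left out. That of Zfp36l1 ranged from -0.20 to 0.018 with single libraries left out and was 0.21 without Y-WT libraries 1 and 4. That of S100a9 ranged from -2.34 to 0.19, the highest without Y-WT library 4. The median of all genes shifted from 0.03 to 0.10 without the filter, 0.15 with all 16 young libraries, 0.14 without Y-WT library 1, 0.15 without Y-WT libraries 1 and 4 and 0.11 without the libraries numbered 1. The cause of these shifts was not tested.

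The replicate numbers were not used as pairs in the main fit. The correlations of same-numbered deviations were 0.28, -0.04, -0.08 and -0.05, and that of the libraries numbered 1 was the largest between the groups. Whether the numbers pair the libraries cannot be settled from these values. With the replicate number as a block, 2 genes were called lower and 3 higher, without Tgfbi. With 4 libraries a group, an exact permutation test cannot give a p below 0.0286.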

Other observations

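Several lists are not described above. The Hox genes had 8 of 10 members above 0 (median 0.11), with 2 nominally higher, against 4 without Y-WT libraries 1 and 4 (median 0.32) and none without Y-TTPΔARE libraries 1 and 2. Without Y-WT library 1 alone the median was 0.25. Notch and Wnt genes had a median of 0.00389, which was 0.21 without Y-WT libraries 1 and 4 and -0.08 without Y-TTPΔARE libraries 1 and 2. For p53 targets these values were 0.12, 0.20 and 0.04, and for B cell genes 0.07, 0.04 and -0.05. Imprinted growth genes had 10 of 14 members below 0 (median -0.13). Their median was 0.012 without Y-WT library 1 alone and 0.11 without Y-WT libraries 1 and 4, against 0.14 and 0.15 for all genes. The mRNAs encoded in mitochondria had 7 of 9 below 0 (median -0.09), but 8 of 9 above 0 without Y-WT libraries 1 and 4 (median 0.19) and 6 of 9 above 0 in both other sets with libraries left out. Immunoglobulin and T-cell receptor segments had a median of -0.82 over 49 members, with 7 nominally lower and 8 nominally higher. Olfactory and vomeronasal receptors had a median of -1.01 over 6 of 1736 listed. It was -1.10, -1.48 and -0.54 in the 3 sets with libraries left out. The summed level of the listed receptors was 63.3, 840, 1049 and 610 CPM in Y-WT and 80.4, 339, 343 and 407 CPM in Y-TTPΔARE. Mesenchymal stroma and osteoblast genes had a median of -0.43 over 5, which was 0.34 without Y-WT libraries 1 and 4. Plasma cell and immunoglobulin constant genes had a median of 0.35 over 15. It was 0.01 without the libraries numbered 1, 0.04 without Y-WT libraries 1 and 4, and -0.29 without Y-TTPΔARE libraries 1 and 2. Ifng, a listed TTP target under the logCPM limit of 1.5, had a log2 fold change of 3.24 with groups that did not overlap, and is named here after its values were seen. Tnf had a log2 fold change of 0.30 and overlapped.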
